A study of Ovis aries with 8 samples.

Results

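Antioxidant enzymes and targets of the transcription factor NRF2 were followed in islets of fetal sheep. The members were the rows whose gene name equals 1 of 34 symbols: superoxide dismutases, catalase, glutathione peroxidases, peroxiredoxins, the thioredoxin, glutaredoxin and glutathione systems, metallothioneins, NRF2 with its partner, and NRF2 targets. The deposited table held 29 of the 34 symbols, in 30 of its 25000 rows. A mean of at least 1 FPKM (sequenced fragments per transcript length and per mapped fragments of the library) over all animals was needed for a test, and 27 members passed. GPX1, GPX4, TXNIP, GSR and MT2A matched no row by name and are not analysed here.

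Islets were hand-picked from the pancreas of near-term singleton Columbia-Rambouillet fetuses. Animals are called control 1 to 4 and NE 1 to 4. The control group (Saline-Control) held 4 fetuses that received only the diluent, ascorbic acid in saline, for 7 days. The infused group (NE-Infused) held 4 fetuses given norepinephrine intravenously at 1 µg/min on day 1, 2 µg/min on days 2 to 4 and 4 µg/min on days 5 to 7. Controls were 139 to 140 days of gestation and 3.6 to 5 kg, and infused fetuses 137 to 139 days and 2.8 to 3.7 kg. Control 2 and NE 3 are female and the others male. Each fetus has its own number, age and weight in the labels, so replicates are separate animals.

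Oxidative metabolism makes superoxide, which superoxide dismutases turn into hydrogen peroxide. Catalase, glutathione peroxidases and peroxiredoxins remove the peroxide, and thioredoxin, glutaredoxin and glutathione restore their thiols at the expense of NADPH. NRF2 (gene NFE2L2) is held down by KEAP1 and, when released, drives many of these genes. Beta cells are known for low catalase and low classical glutathione peroxidase activity compared with liver.

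Endocrine markers were strong in every library, with summed levels of 5075 to 12313 FPKM over 10 listed markers, and GCG, CHGA, PDX1 and SLC2A2 were all present, so the islet label held. Single endocrine markers varied unequally. SST ran from 113.2 to 1858 FPKM over the 8 animals, with means of 392.7 in controls and 1142 in infused animals. GCG ran from 702.7 to 4108 FPKM, and PDX1 from 211.2 to 317.0 FPKM. Exocrine RNA differed between animals too. The 8 listed acinar markers summed to 110.0 to 146.2 FPKM in controls and 118.0 to 939.0 FPKM in infused animals, and the 6 listed stromal markers to 435.8 to 710.5 and 303.5 to 1772 FPKM. The animal numbers start with 09 (control 2 and NE 1, 3 and 4) or 10 (controls 1, 3 and 4 and NE 2), and the labels do not say what this prefix means. Summed FPKM was 981583 to 1112624 in the 09 animals and 768021 to 796149 in the 10 animals. This sum thus moved with the prefix, which lies partly across treatment. The median log2 difference over all rows tested, 10 minus 09 with treatment in the fit, was smaller, at -0.088. Both females are numbered 09, and the part of sex in the results was not tested. In homogenised islets, fewer cells of a type and less RNA per cell cannot be told apart.

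The antioxidant genes were among the abundant transcripts of control islets. Of the 27 members tested, 10 had a control mean above the 95th percentile of all 13252 rows tested. The median member sat at percentile 88.1, with a lowest of 23.3 for GPX8 and a highest of 99.3 for TXN. FPKM is scaled to transcript length, so levels are set side by side between genes. This is less sure for rows of shared locus or uncertain identity, among them PRDX5 and GLRX, as described below. TXN, the cytosolic thioredoxin, stood first with 1260.2 ± 250.0 FPKM (SD, n = 4 controls), followed by GPX3, the secreted glutathione peroxidase, with 1117 ± 298.5 FPKM and by the cytosolic peroxiredoxin PRDX2 with 811.8 ± 266.3 FPKM. Next came PRDX5, PRDX1, SOD2, HMOX1, GSTP1, PRDX6, TXNRD1, PRDX4 and GLRX, and the control ranges of neighbours in this order overlapped throughout. Catalase (CAT) followed GLRX with 106.6 ± 13.7 FPKM, and every control lay below every control value of PRDX2, PRDX1, PRDX5, PRDX6, TXN and GPX3.

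**Figure D1:**
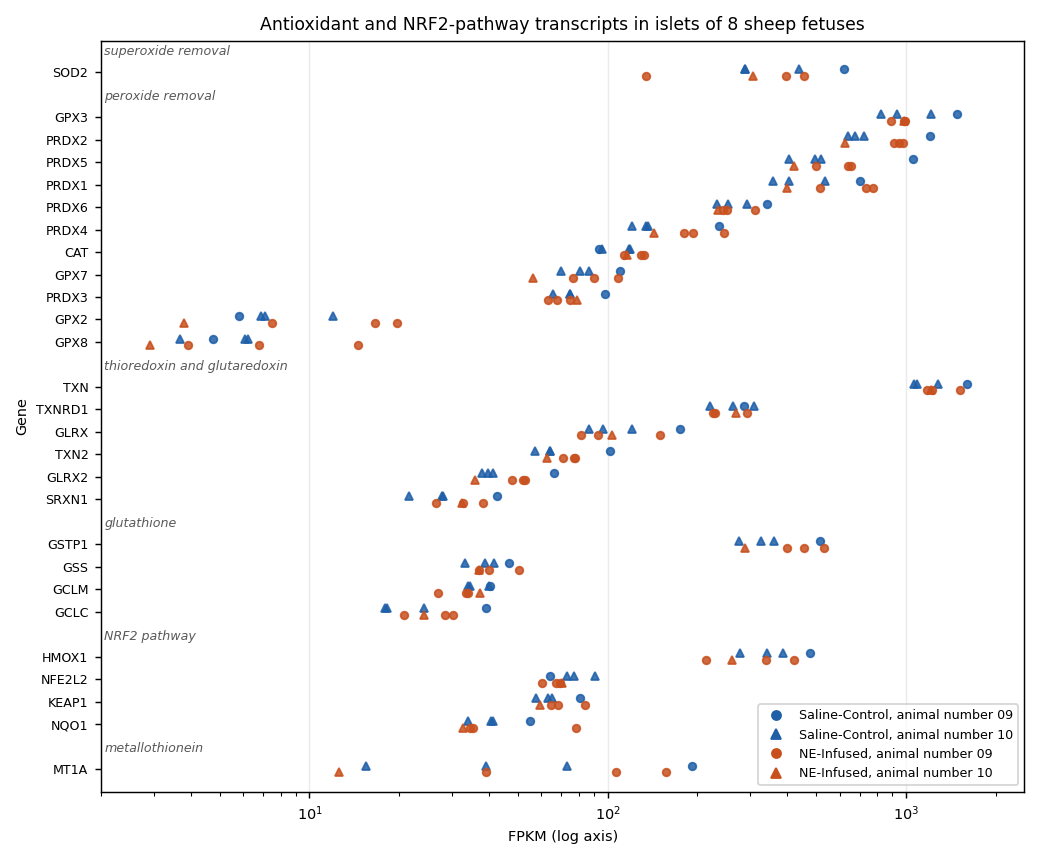
FPKM of the 27 tested members on a log axis, 1 point per animal, coloured by treatment, with circles for animals numbered 09 and triangles for those numbered 10. TXN (control mean 1260.2 FPKM) is at the top of the scale and GPX8 (5.18 FPKM) at its low end, and the treatment colours overlap in every row.

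Norepinephrine left the measured antioxidant transcripts without a call. By limma's moderated test with Benjamini-Hochberg adjustment over all rows, 0 of 27 members were called, against 0% of all 13252 rows, and the lowest adjusted p of a member was 0.742 (CAT). At an unadjusted p under 0.05 the count was also 0 of 27, against 7.36% of rows. No member separated the groups, against 4.23% of rows in which every animal of a group lay above every animal of the other. The mean was higher with norepinephrine in 15 members and lower in 12, with a median log2 difference of 0.038 for the members and 0.017 for all rows. This balance changed with the scale and the covariates, although centring each library on its median kept it at 15 and 12. At equal library totals 21 members had a lower mean (69.5% of rows), with a median of -0.11 for the members and -0.12 for all rows. With the animal number prefix as a covariate 25 were lower (52.8% of rows), with medians of -0.15 and -0.018. With gestational age as a covariate 24 were lower (54.9% of rows), with medians of -0.29 and -0.044, and none of these fits called a member. Without a covariate the differences ran from -0.40 (SOD2) to 0.35 (GPX2). The 95% intervals of 23 members then lay within 2-fold in both directions, and those of SOD2, GPX2, GPX8 and MT1A included a 2-fold change. With the prefix as a covariate the intervals of 5 members passed 2-fold, HMOX1 being added, and with gestational age those of 12 did.

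**Figure D2:**
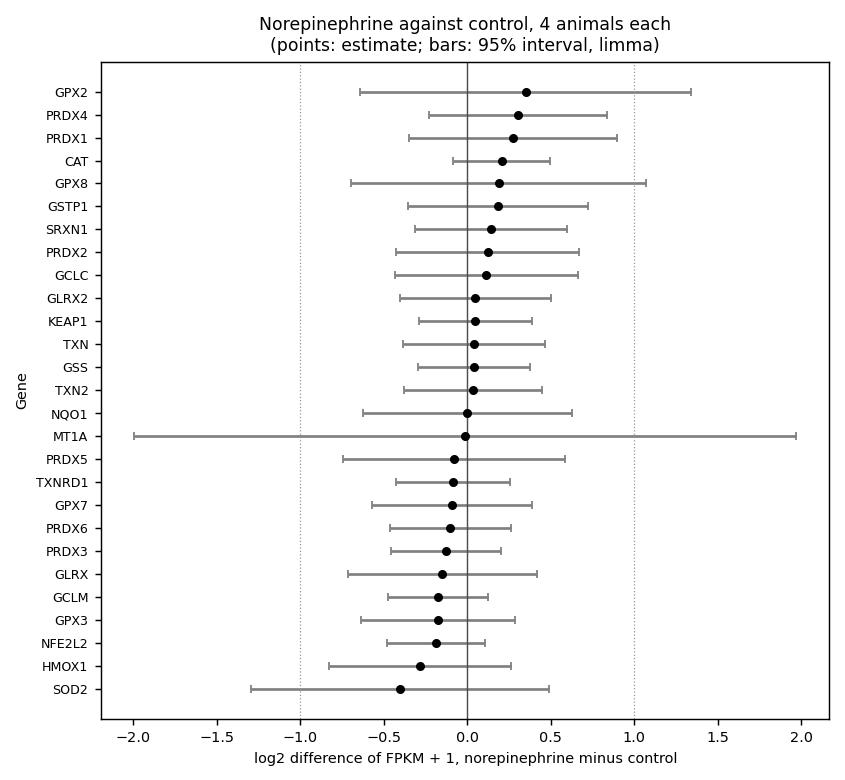
Log2 difference of FPKM + 1, norepinephrine minus control, with its 95% interval, for the 27 tested members. Dotted lines mark a 2-fold change, and the intervals of 4 members (SOD2, GPX2, GPX8 and MT1A) pass them.

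Superoxide dismutases came first in the pathway. SOD2, the manganese enzyme of the mitochondrial matrix (chromosome 8, 82622686 to 82631817, Oar_v3.1), read 437.1, 622.9, 289.2 and 288.1 FPKM in controls 1 to 4 and 455.0, 306.3, 395.5 and 134.6 FPKM in NE 1 to 4. NE 4 was the lowest animal and control 2 the highest, and the other infused animals lay inside the control range. The means were 409.3 ± 158.6 and 322.8 ± 139.6 FPKM (SD, n = 4 each), a log2 difference of -0.40 (SE 0.40, 95% interval -1.29 to 0.49, limma adjusted p = 0.814). SOD3, the secreted enzyme, had at most 0.66 FPKM in any animal and was not tested. SOD1, the abundant cytosolic copper-zinc enzyme, carried 2 short rows, on chromosome 1 (122094296 to 122094754) and chromosome 11 (26456369 to 26456827). The highest SOD1 value in either row was 0.581 FPKM, in control 3. Such values can be failed estimates, since a gene that nearly all cells use is listed near 0, and no reading is made from them. Only the chromosome 1 row has a flanking gene, SCAF4, that also flanks SOD1 in the RefSeq table of the later assembly ARS-UI_Ramb_v3.0.

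Catalase, which splits peroxide without a thiol partner, had the lowest p of the members in the fit without a covariate. CAT (chromosome 15, 63173125 to 63209306) read 96.0, 93.6, 117.9 and 118.9 FPKM in controls 1 to 4 and 129.7, 115.7, 132.1 and 113.3 FPKM in NE 1 to 4. NE 1 and NE 3 lay above every control, and NE 2 and NE 4 fell between the lower and the upper pair of controls. The means were 106.6 ± 13.7 and 122.7 ± 9.54 FPKM, a log2 difference of 0.21 (SE 0.13, 95% interval -0.08 to 0.50, adjusted p = 0.742 by limma). At equal library totals the difference was 0.053 (adjusted p = 0.947 by limma), and with the prefix as a covariate 0.24 (adjusted p = 0.530 by limma). CAT was the single member of 27 whose mean was higher with norepinephrine in both the 09 animals (0.41) and the 10 animals (0.07). Over all rows, 25.9% were higher in both. It varied little, its highest animal being 1.41 times its lowest, against a median ratio of 1.75 over the 8224 rows with a mean of at least 10 FPKM.

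Glutathione peroxidases reduce peroxides with glutathione, and 4 members of the family were listed. GPX3 ran from 828.0 to 1491 FPKM in controls and from 890.2 to 996.2 FPKM in infused animals. The infused animals thus lay inside the control range, and the log2 difference was -0.18 (SE 0.20). GPX7, an endoplasmic reticulum enzyme, read 69.9, 110.3, 81.1 and 86.7 FPKM in controls 1 to 4 and 89.9, 56.4, 76.5 and 107.9 FPKM in NE 1 to 4. The groups overlapped over most of their range (log2 difference -0.09, SE 0.21). GPX2, best known from the gut epithelium, ran from 5.79 to 11.9 FPKM in controls and from 3.80 to 19.6 FPKM in infused animals, with NE 3 and NE 4 above every control. The same 2 animals had 939.0 and 344.8 FPKM of summed acinar markers, while NE 1 had 559.99 FPKM of these markers and 7.50 FPKM of GPX2. The part of exocrine RNA in the GPX2 values was not tested. GPX8, a second endoplasmic reticulum member, ran from 3.67 to 6.21 FPKM in controls and from 2.91 to 14.5 FPKM in infused animals. Its row spans a locus shared with CDC20B, and without a stated strand setting the reads of overlapping genes cannot be told apart.

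Peroxiredoxins reduce peroxide with thioredoxin and summed to more FPKM than the 4 listed glutathione peroxidases in every animal, with GPX1 and GPX4 not among the rows. Summed over PRDX1 to PRDX6, controls 1 to 4 had 1885, 3644, 2013 and 2253 FPKM and NE 1 to 4 had 2534, 1904, 2776 and 2990 FPKM. Control 2 alone exceeded every infused animal, and the other controls and NE 2 formed the lower values. PRDX2 (chromosome 5, 10811752 to 10813968) read 673.5, 1208, 641.1 and 724.7 FPKM in controls and 950.2, 625.1, 910.5 and 982.2 FPKM in infused animals. Control 2 was the highest animal and NE 2 the lowest, and the log2 difference was 0.12 (SE 0.24, 95% interval -0.43 to 0.67). PRDX1, also cytosolic, read 359.4, 700.8, 406.1 and 536.8 FPKM in controls and 515.1, 399.7, 733.7 and 778.8 FPKM in infused animals. NE 3 and NE 4 lay above every control, but NE 2 lay below all controls other than control 1 (log2 difference 0.27, SE 0.28, adjusted p = 0.820 by limma).

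PRDX4, the secretory-pathway peroxiredoxin that feeds disulfides to folding proteins, read 136.4, 236.1, 120.8 and 134.7 FPKM in controls and 193.4, 143.1, 180.5 and 245.6 FPKM in infused animals. Every infused animal exceeded controls 1, 3 and 4, and control 2 exceeded all but NE 4. The means were 157.0 ± 53.2 and 190.6 ± 42.4 FPKM, a log2 difference of 0.30 (SE 0.24, 95% interval -0.23 to 0.84, adjusted p = 0.777 by limma). Without control 2 the difference was 0.52 and the groups no longer overlapped, with an adjusted p of 0.259 by limma. In that setting 15.6% of all rows had no overlap. PRDX5, a peroxiredoxin of mitochondria, peroxisomes and cytosol, read 407.3, 1058, 517.8 and 496.3 FPKM in controls and 500.3, 422.9, 639.7 and 657.0 FPKM in infused animals. Control 2 was far above the rest, and the log2 difference of -0.08 (SE 0.29) became 0.21 without it. The PRDX5 row shares its locus with ESRRA. PRDX3, the mitochondrial enzyme, ran from 65.8 to 98.1 FPKM in controls and from 63.1 to 79.1 FPKM in infused animals, and PRDX6, which uses glutathione, from 233.3 to 343.0 and from 234.3 to 312.1 FPKM. Both had log2 differences smaller than their SE (-0.13, SE 0.15, and -0.10, SE 0.16).

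**Figure D3:**
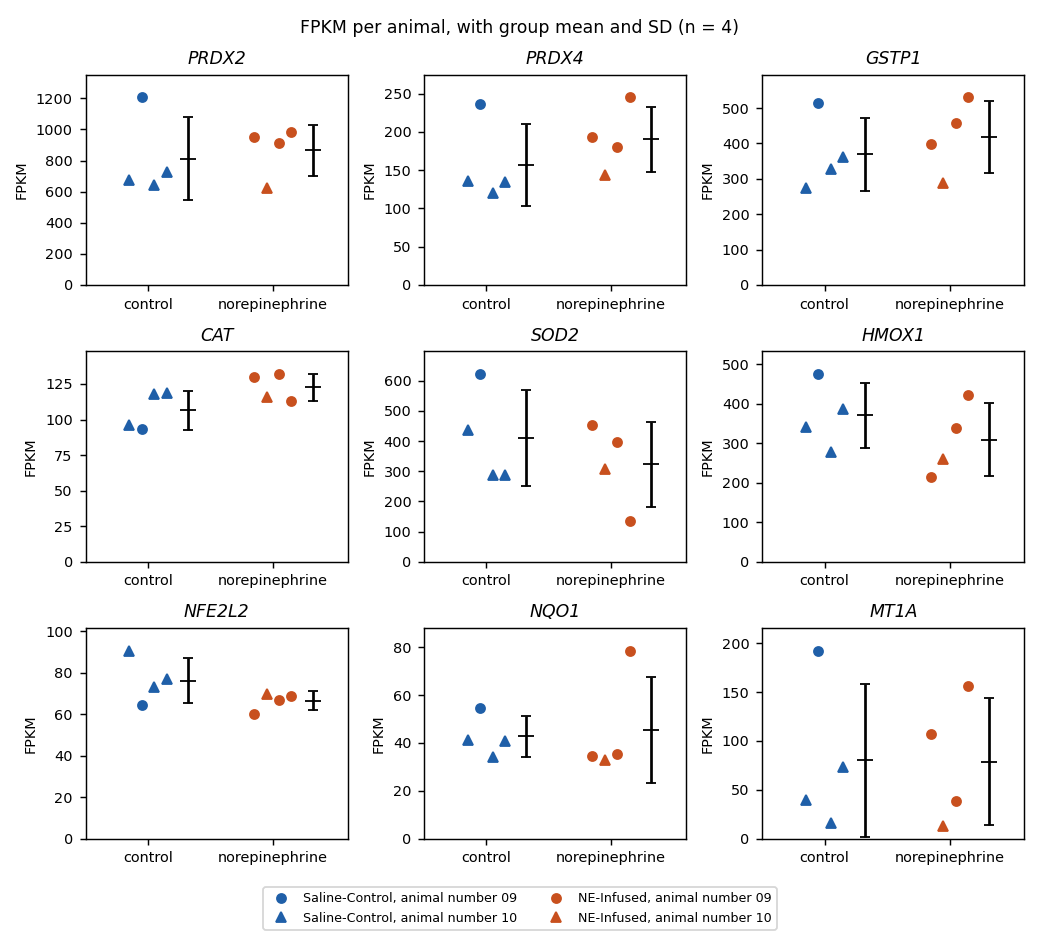
FPKM of 9 members in each animal, with group mean and SD (n = 4), control in blue and norepinephrine in orange, circles for animals numbered 09 and triangles for 10. In PRDX2, PRDX4 and GSTP1 the 4 triangles lie below the 4 circles whatever the treatment, and in NFE2L2 above them.

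Thioredoxin and its reductase keep peroxiredoxins reduced. TXN (chromosome 2, 13016557 to 13028295) read 1089, 1606, 1065 and 1281 FPKM in controls and 1175, 1217, 1228 and 1518 FPKM in infused animals. Every infused animal lay inside the control range, and the log2 difference was 0.04 (SE 0.19, 95% interval -0.39 to 0.47). TXNRD1, the cytosolic thioredoxin reductase and a known NRF2 target, read 220.5, 287.7, 263.1 and 308.9 FPKM in controls and 224.9, 270.0, 293.3 and 228.8 FPKM in infused animals. It too stayed inside the control range, at -0.08 (SE 0.15, 95% interval -0.43 to 0.26). SRXN1, sulfiredoxin, which restores over-oxidised peroxiredoxins, read 21.6, 42.6, 28.1 and 27.9 FPKM in controls and 26.6, 32.6, 32.8 and 38.2 FPKM in infused animals. NE 2, 3 and 4 exceeded controls 1, 3 and 4 while control 2 was the highest animal, and the log2 difference was 0.14 (SE 0.20).

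Mitochondrial thioredoxin, TXN2, read 57.1, 102.1, 63.9 and 64.3 FPKM in controls and 77.1, 62.8, 70.7 and 77.9 FPKM in infused animals. Control 2 again stood above all other animals, and the log2 difference was 0.04 (SE 0.18). GLRX2, the mitochondrial glutaredoxin, which reduces glutathione-bound protein thiols, read 41.3, 66.3, 39.8 and 37.9 FPKM in controls and 47.9, 36.0, 52.2 and 53.0 FPKM in infused animals. Control 2 was the highest and NE 2 the lowest (log2 difference 0.05, SE 0.20), and the row shares its locus with TROVE2. GLRX, the cytosolic glutaredoxin, ran from 86.6 to 175.5 FPKM in controls and from 81.4 to 149.6 FPKM in infused animals. The GLRX row covers 321 bases between SAP130 and AMMECR1L, whereas the RefSeq table places GLRX between RHOBTB3 and ELL2, so the identity of this row is uncertain.

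Glutathione synthesis starts with glutamate-cysteine ligase, a catalytic subunit (GCLC) with a modifier (GCLM), and ends with glutathione synthetase (GSS). GCLC read 24.3, 39.0, 18.0 and 18.2 FPKM in controls and 20.8, 24.3, 30.2 and 28.5 FPKM in infused animals. Control 2 lay above every infused animal and controls 3 and 4 below every one, at a log2 difference of 0.12 (SE 0.24). GCLM read 33.98, 40.4, 34.5 and 39.9 FPKM in controls and 27.0, 37.2, 33.99 and 33.4 FPKM in infused animals. NE 1 and NE 4 lay below all controls and NE 2 lay between the lower and upper pairs, and the means of 37.2 ± 3.42 and 32.9 ± 4.29 FPKM gave a log2 difference of -0.18 (SE 0.13, 95% interval -0.47 to 0.12, adjusted p = 0.777 by limma). GSS ran from 33.1 to 46.6 FPKM in controls and from 37.0 to 50.5 FPKM in infused animals (0.04, SE 0.15). GSTP1, the pi-class glutathione S-transferase, was the most abundant member of this group. It read 275.0, 514.2, 327.4 and 361.0 FPKM in controls and 398.9, 289.1, 457.2 and 530.9 FPKM in infused animals, and NE 4 and control 2 were the highest animals (log2 difference 0.19, SE 0.24).

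Of the NRF2 switch and its best-known targets, NFE2L2 and HMOX1 had a lower mean with norepinephrine and KEAP1 and NQO1 a nearly equal one, all without a call. NFE2L2 (chromosome 2, 131754249 to 131759072) read 90.7, 64.3, 73.3 and 76.9 FPKM in controls and 60.0, 70.03, 66.9 and 69.1 FPKM in infused animals. Controls 1, 3 and 4 exceeded every infused animal while control 2 lay below 3 of them. The means were 76.3 ± 11.0 and 66.5 ± 4.51 FPKM, a log2 difference of -0.19 (SE 0.13, 95% interval -0.48 to 0.11, adjusted p = 0.771 by limma). Without control 2 the groups did not overlap, at -0.26 and an adjusted p of 0.300 by limma. KEAP1, the adaptor that targets NRF2 for degradation, read 63.2, 80.9, 57.7 and 65.0 FPKM in controls and 64.5, 59.3, 68.4 and 83.9 FPKM in infused animals. The ranges were almost the same, and the log2 difference was 0.05 (SE 0.15, 95% interval -0.29 to 0.39).

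HMOX1, heme oxygenase 1, which degrades heme and is induced by many stresses, read 341.9, 475.8, 277.9 and 386.5 FPKM in controls and 213.4, 260.9, 339.2 and 422.9 FPKM in infused animals. NE 1 and NE 2 lay below all controls and the other infused animals inside the control range, and the log2 difference was -0.28 (SE 0.24, 95% interval -0.82 to 0.26, adjusted p = 0.785 by limma). At equal library totals it was -0.44 with an adjusted p of 0.629. NQO1, a quinone reductase, read 41.4, 54.8, 34.03 and 40.7 FPKM in controls and 34.5, 32.8, 35.3 and 78.6 FPKM in infused animals. NE 1 and NE 3 sat at the low end of the controls, NE 2 below all of them and NE 4 above every animal, and the mean log2 difference was 0.0017 (SE 0.28). NE 4 also had the highest summed stromal markers, 1772 FPKM, and the part of these in its NQO1 value was not tested.

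Metallothioneins bind zinc and copper and scavenge radicals, and their genes respond to metals and glucocorticoids. MT1A (chromosome 14, 23505870 to 23518073) was the most variable member, with 39.2, 192.3, 15.5 and 73.2 FPKM in controls and 106.7, 12.6, 39.0 and 156.6 FPKM in infused animals. Control 2 and NE 4 were the highest, control 3 and NE 2 the lowest, and the highest value was 15.3 times the lowest. The MT1A row spans 12204 bases. The RefSeq table listed no protein-coding gene of that name, so the identity of this row was not checked. The means of 80.04 ± 78.5 and 78.7 ± 65.3 FPKM gave a log2 difference of -0.01 with an SE of 0.88 and a 95% interval of -1.99 to 1.97. Within the prefixes MT1A was lower with norepinephrine, by -1.14 in the 09 animals and -1.43 in the 10 animals. The difference was -1.28 (SE 0.62, adjusted p = 0.471 by limma) with the prefix as a covariate and -2.50 (SE 0.82, adjusted p = 0.570 by limma) with gestational age. The neighbouring row named MT2, which is no member, read 144.9, 676.8, 132.2 and 149.3 FPKM in controls and 219.6, 108.4, 439.4 and 522.2 FPKM in infused animals. In both genes control 2 was the highest animal and NE 2 the lowest.

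Antioxidant genes were called between the animal number prefixes. The 09 fetuses weighed 2.8 to 3.6 kg and the 10 fetuses 3.7 to 5 kg, so prefix and weight cannot be told apart. Their ages were 137 to 139 days and 139 to 140 days. The part of weight and age in these calls was not tested. With treatment in the limma fit, 9 of 27 members were called lower in the 10 animals than in the 09 animals, against 10.4% of all rows, and 0 were called higher, against 6.06%. They were PRDX1, PRDX2, PRDX4, PRDX5, GPX7, TXN2, GLRX2, GSTP1 and MT1A. The estimate was below 0 in 24 of 27 members (88.9%) and in 57.4% of rows, with medians of -0.41 and -0.088 on the log2 scale. In 5 of 27 members (PRDX2, PRDX4, TXN2, GLRX2 and GSTP1), every 10 animal lay below every 09 animal. This is against 14.8% of rows, a share near that background. NFE2L2 was the 1 member with every 10 animal above every 09 animal, against 10.6% of rows.

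PRDX2 averaged 1013 ± 133.4 FPKM in the 09 animals and 666.1 ± 43.9 FPKM in the 10 animals (SD, n = 4 each), a difference of -0.71 on the log2 scale (limma adjusted p = 0.0103). PRDX4 averaged 213.9 ± 31.8 and 133.8 ± 9.34 FPKM (-0.68, adjusted p = 0.0217 by limma). GSTP1 averaged 475.3 ± 59.9 and 313.1 ± 38.8 FPKM (-0.68, adjusted p = 0.0215 by limma). In all 3 genes NE 2 and the controls numbered 10 lay below control 2 and the infused animals numbered 09. MT1A averaged 123.6 ± 66.5 and 35.1 ± 28.0 FPKM, the largest difference among the members at -2.55 (adjusted p = 0.0331 by limma), although its ranges overlapped. GLRX2 differed by -0.61 (adjusted p = 0.0139), TXN2 by -0.49 (0.0371), GPX7 by -0.58 (0.0371), PRDX5 by -0.83 (0.0254) and PRDX1 by -0.72 (0.0424), all by limma. NFE2L2 averaged 65.1 ± 3.88 FPKM in the 09 animals and 77.7 ± 9.09 FPKM in the 10 animals, and this difference of 0.21 did not pass (adjusted p = 0.251 by limma).

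Summed FPKM moved with the prefix, being 1.34 times as high in the 09 animals. Depth, where steps in low FPKM values gave it, did too, if FPKM was divided by the mapped fragments of each library. Relative to control 1 it was 0.648 in NE 1 and 0.726 in NE 3, both numbered 09. It was 1.009 to 1.173 in NE 2 and controls 3 and 4, all numbered 10. The part of depth in the prefix differences was not tested. When each animal was scaled to the same total, the median over all rows changed from -0.088 to 0.31, so the size of the prefix difference is read relative to that shift. At equal totals the member median was 0.038, and 5 members were called. PRDX2 (-0.26, adjusted p = 0.0486) and MT1A (-2.11, adjusted p = 0.0346) remained lower in the 10 animals, against 1.79% of rows called lower by limma. CAT (0.51, adjusted p = 0.0297), GCLM (0.48, adjusted p = 0.0224) and NFE2L2 (0.65, adjusted p = 0.00792) were called higher, against 31.0% of rows. The other 7 members called on deposited FPKM kept a negative estimate but not the call. With each library centred on its median instead, 9 members were called lower in the 10 animals. The share of all rows called in that fit is not available here. Control 2, the lone control numbered 09, was the highest control in 22 of 27 members (44.7% of rows) and the highest of all 8 animals in 16 (24.1% of rows). Without it 0 members were called between prefixes, and NE 2 alone then tells prefix from treatment. The members called on deposited FPKM all kept a negative estimate without control 2, from -0.25 (TXN2) to -2.69 (MT1A), with PRDX2 at -0.60. Without control 1 or NE 2 the count of calls was 4, and without control 3 it was 2. The share of all rows called in these fits is not available here, so the counts have no background beside them.

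**Figure D4:**
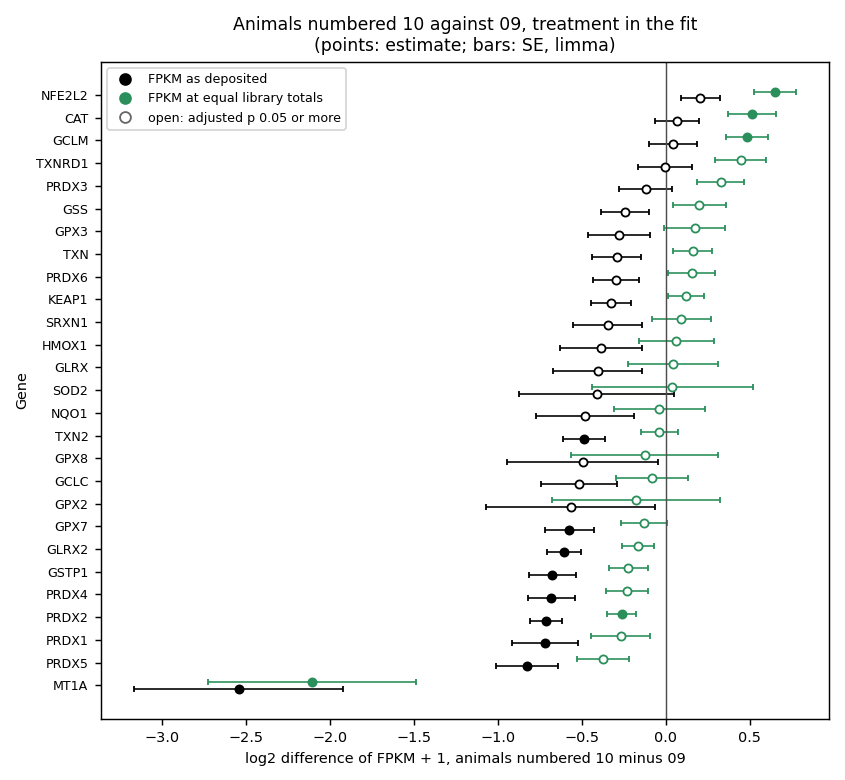
Log2 difference between animals numbered 10 and 09 with its SE, treatment in the fit, for the 27 tested members, on deposited FPKM (black) and at equal library totals (green), with filled points where the adjusted p by limma is under 0.05. On deposited FPKM 9 members are filled, all below 0, and at equal totals 5 are filled, 2 below 0 and 3 above.

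Within a prefix, the direction of the treatment difference was often the opposite of the pooled one. Means were higher with norepinephrine in 4 of 27 members within the 09 animals (45.8% of rows) and in 11 within the 10 animals (50.3% of rows). In 13 members they were lower within both, against 29.6% of rows. Of the 15 members higher with norepinephrine in the pooled comparison, 7 were lower within both prefixes. PRDX2 (-0.35 within 09 and -0.12 within 10) and GSTP1 (-0.16 and -0.14) were among these. HMOX1 was lower in both, at -0.60 and -0.35, as in the pooled comparison, and SOD2 likewise at -1.10 and -0.11. Each within-prefix contrast sets 3 animals against 1, so these values have no test. With the prefix as a covariate, the unadjusted p fell under 0.05 for PRDX2 (-0.24), PRDX5 (-0.49), GPX7 (-0.38) and GLRX2 (-0.25), and 0 members were called after adjustment. Among all rows in that fit, 11.7% had an unadjusted p under 0.05.

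Genes around the pathway gave the same count of adjusted calls. Of 52 tested genes in 5 lists (NADPH supply, further NRF2 regulators and targets, other glutathione S-transferases, other thiol repair, and producers of superoxide and peroxide), 0 were called by limma after adjustment. The mean was higher with norepinephrine in 31 of them and lower in 21, against 52.6% of all rows with a higher one. An unadjusted p under 0.05 was reached by 6, of which 3 were higher and 3 lower, against 7.36% of all rows. The groups separated in 2 of the 52, EPHX1 and NFE2L1, against 4.23% of all rows, a share near that background. NFE2L1 is named after its values were seen.

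EPHX1, microsomal epoxide hydrolase, read 44.9, 44.3, 40.2 and 39.6 FPKM in controls and 65.7, 50.2, 72.2 and 52.3 FPKM in infused animals. All infused animals lay above all controls, and the log2 difference was 0.48 (SE 0.14) with an adjusted p of 0.523 by limma. It was 0.49 within the 09 animals and 0.27 within the 10 animals. Among the 17 further NRF2 regulators and targets, 13 had a higher and 4 a lower mean, against 52.6% of all rows with a higher one. The list mixes targets with regulators, some of which act against NRF2, so this count gives no direction of NRF2 activity. BACH1, a repressor at NRF2 sites, had 25.6 ± 2.83 FPKM in controls and 20.1 ± 1.94 FPKM with norepinephrine (-0.34, adjusted p = 0.628 by limma). NFE2L1, the NRF1 relative of NRF2, had 102.4 ± 6.06 and 84.9 ± 4.35 FPKM (-0.27, adjusted p = 0.632 by limma). FTH1, the ferritin heavy chain, was the most abundant of the list, with means of 1560 and 2157 FPKM (adjusted p = 0.707 by limma).

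NADPH supply had 11 of 11 genes tested, 5 with a higher and 6 with a lower mean. IDH1, the cytosolic isocitrate dehydrogenase, had 18.2 ± 2.74 FPKM in controls and 24.0 ± 4.32 FPKM with norepinephrine (0.37, adjusted p = 0.666 by limma). NNT, the mitochondrial transhydrogenase, had 50.8 ± 5.49 and 40.4 ± 5.83 FPKM (-0.33, adjusted p = 0.663 by limma). TALDO1, transaldolase, was the most abundant, with means of 313.7 and 366.9 FPKM. In thiol repair, 6 of 11 genes had a higher mean, and GLRX3, a glutaredoxin of iron-sulfur cluster handling, had 120.1 ± 11.9 and 149.0 ± 19.1 FPKM (0.31, adjusted p = 0.666 by limma). TXNRD2, the mitochondrial thioredoxin reductase, had means of 7.93 and 9.68 FPKM. Of 7 other glutathione S-transferases tested, 2 had a higher mean, the microsomal MGST1 (8.47 and 17.2 FPKM) and MGST3 (25.1 and 29.0 FPKM), while GSTK1, the most abundant, had 40.1 and 37.2 FPKM. Of 6 producers tested, 5 had a higher mean, among them the NADPH oxidase subunit CYBA, the most abundant (38.3 and 45.8 FPKM). Leukocyte markers summed to 122.1 to 176.3 FPKM in controls and 125.1 to 201.5 FPKM in infused animals, and their part in the producers' values was not tested.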

How the data were processed

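The authors deposited 1 table of FPKM for 25000 rows and 8 animals, per the file headers, with no counts. The submitters' processing notes name TopHat2 2.0.1, Cufflinks 2.1.1, Cuffdiff and the build Oar_v3.1. For annotation, filters and strand setting, nothing is given in the sources used here. Columns were matched by animal number, and 0 sample columns were left out. Depth is known only relatively: steps in low FPKM values gave it for 5 libraries against control 1, while control 2 and NE 4 gave no clear step. These steps stand for depth only if FPKM was divided by the mapped fragments of each library.

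Values were analysed as log2(FPKM + 1), which understates changes of low genes. Rows with a mean of at least 1 FPKM (13252) were compared by limma 3.58.1 in R 4.3.3 (lmFit, eBayes with trend, two-sided, Benjamini-Hochberg, threshold 0.05). A symbol with several rows was read from its most abundant row. The fit was tested on simulated data. Members, lists and tests were chosen with earlier results of these data known. Values per animal are given for 19 members chosen by role whatever their outcome (where listed), and for others with an unadjusted p under 0.05, separated groups, or a call between prefixes. From each pathway list the text names the 2 genes with the lowest p and the most abundant. 1 gene so chosen is not reported here. Coordinates are the file's, on Oar_v3.1, counted from 1. RefSeq's ARS-UI_Ramb_v3.0 table served for names and neighbours only. Alternatives covered pseudocount, filter, scaling, variance trend, covariates, replicate block and leaving out each animal.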

Additional observations from a re-analysis of the deposited data

Results flagged for a closer look

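Among the members, 58 groups of 4 animals were examined. In 9 of them an animal lay far from the other 3 by Dixon's gap ratio at its 95% limit. The nominal 5% of that limit is for normal, independent values. The share over all rows was not computed, so no excess is read for the members. Control 2 was the far animal in 5 of the 9 groups: PRDX2 at 1208 FPKM, PRDX4 at 236.1 FPKM, PRDX5 at 1058 FPKM, TXN2 at 102.1 FPKM and GLRX2 at 66.3 FPKM. In each case it lay above the other controls. NE 4 stood above the other infused animals in TXN at 1518 FPKM and in NQO1 at 78.6 FPKM. NE 3 stood below them in GPX3 at 890.2 FPKM. Control 3 stood above the other controls in the short SOD1 row on chromosome 11, at 0.581 FPKM against 0 in each of them. With 0 in the other controls the ratio is 1 whatever the value, and no reading is made from this row. The 9 groups are not independent, since 5 of the values belong to 1 library.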

How the results depend on the processing

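No alternative gave an adjusted call of a member between treatment groups. Of 20 members followed through 21 settings each, CAT, SOD2 and HMOX1 kept their direction in all. The smallest differences in size were 0.053 for CAT (equal totals), -0.0037 for SOD2 (gestational age) and -0.12 for HMOX1. Over all rows, 1 was called at equal library totals, 1 with the prefix as a covariate, and 0 to 2 when 1 animal was left out. Members at an unadjusted p under 0.05 were 1 of 27 at equal totals (HMOX1; 7.87% of rows), 4 with the prefix (11.7%), 3 with gestational age (GPX7, NQO1 and MT1A; 7.91%) and 0 to 2 with 1 animal left out, the 2 without control 2 (16.6%). Members without overlap were 0 to 2 with 1 animal left out, the 2 being PRDX4 and NFE2L2 without control 2, where 15.6% of rows had none. The members' median was -0.29 with age and -0.35 within the 09 animals. Members called between prefixes were 5 at equal totals, where 1.79% of rows were called lower in the 10 animals and 31.0% higher. Centring each library on its median gave 9 called lower in the 10 animals. Leaving out the filter or the variance trend gave 6 each. The calls were 0 to 8 with 1 animal left out. For all these fits other than equal totals, and for the replicate block, the share of all rows called between prefixes is not available. Same-numbered animals of the groups are different fetuses and did not deviate together (correlations -0.38 to 0.093); the replicate block left 5 prefix calls and 0 treatment calls.

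Log2 differences changed sign as follows, and the cause was not tested. Equal library totals gave -0.032 for PRDX2, -0.11 for TXN, -0.11 for TXN2, -0.10 for GLRX2, -0.0043 for SRXN1, -0.031 for GCLC, -0.10 for KEAP1 and -0.15 for NQO1. The prefix covariate gave -0.087 for PRDX1, -0.24 for PRDX2, -0.036 for PRDX4, -0.11 for TXN, -0.21 for TXN2, -0.25 for GLRX2, -0.029 for SRXN1, -0.14 for GCLC, -0.15 for GSTP1, -0.12 for KEAP1 and -0.24 for NQO1. Gestational age gave -0.23 for PRDX1, -0.38 for PRDX2, -0.32 for PRDX4, -0.28 for TXN, -0.33 for TXN2, 0.065 for TXNRD1, -0.35 for GLRX2, -0.17 for SRXN1, -0.18 for GCLC, -0.34 for GSTP1, -0.29 for KEAP1 and -0.79 for NQO1. The acinar covariate gave -0.072 for PRDX1, -0.16 for PRDX2, -0.090 for TXN2, -0.20 for GLRX2, -0.033 for GCLC, -0.10 for GSTP1, -0.049 for KEAP1 and -0.051 for NQO1. Leaving out 1 animal gave -0.23 to 0.076 for GPX7, -0.25 to 0.21 for PRDX5, -0.043 to 0.16 for TXN, -0.058 to 0.22 for TXN2, -0.031 to 0.23 for GLRX2, -0.011 to 0.35 for GCLC, -0.049 to 0.14 for KEAP1, -0.29 to 0.13 for NQO1 and -0.59 to 0.66 for MT1A.

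FPKM without counts leaves depth unknown for control 2 and NE 4, so no counting interval was computed. The prefix contrast was not run with age or acinar markers as covariates, and overlap does not depend on the covariates, trend or block. Motifs in promoters were not searched, and no sequence was used here.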
